A study of Arabidopsis thaliana with 6 samples.

Results

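The mature sequences of ath-miR159 and ath-miR319 were examined in small RNA sequencing libraries of Arabidopsis rosette leaves. They comprised every entry of the deposited miRNA table named miR159 or miR319, irrespective of gene copy or hairpin strand, which gave 6 of 349 sequences, 4 of miR159 and 2 of miR319. The plants were grown in soil and were 3 weeks old when rosette leaves were taken, and all 3 genotypes were in the Columbia-0 background without any treatment. The wild type (WT) was compared with hyl1-2, which lacks normal function of HYL1, a double-stranded RNA-binding partner of the dicing enzyme DCL1, and with the snrk2.2/3/6 triple mutant, in which 3 protein kinases activated by abscisic acid are defective. Each genotype was represented by 2 biological replicates, and the number of plants behind each is not given in the sources used here. Messenger RNAs were not measured, so neither the mutated genes nor markers of leaf tissue could be checked in these libraries.

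miR159 and miR319 are old and closely related plant miRNA families. In Arabidopsis, miR159 directs cleavage of transcripts of GAMYB-like transcription factors such as MYB33 and MYB65, which stunt and curl leaves when they escape the miRNA, and MIR159a and MIR159b act redundantly in this. miR319, known from the JAW locus, directs cleavage of transcripts of TCP factors including TCP2, TCP3, TCP4, TCP10 and TCP24, which restrain cell division along the leaf margin. The hairpins of both families are unusually long and are known to be cut by DCL1 from the loop towards the base.

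The sequences are shown because members are told apart by single bases. They are written 5′ to 3′ as DNA, with the seed, bases 2 to 8, in capitals.
miR159a: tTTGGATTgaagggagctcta
miR159b-3p: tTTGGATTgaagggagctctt
miR159c: tTTGGATTgaagggagctcct
miR319a/b: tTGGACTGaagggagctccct
miR319c: tTGGACTGaagggagctcctt
miR159b-5p: gAGCTCCTtgaagttcaatgg
The 3 miR159 guide strands shared 1 seed, both miR319 sequences shared another, and miR159b-5p, from the opposite strand of the MIR159b hairpin, had its own. Counted from the 5′ end, miR159b-3p differed from miR159a only by A21T, and miR159c differed from miR159b-3p only by T20C. The sequences miR319c and miR319a/b differed only by C20T. Between the families, miR319a/b matched miR159a at 17 of 20 bases when it was shifted by 1 base. Because the authors counted only reads identical to a mature sequence, a read was assigned to miR159a or to miR159b-3p by its last base alone. The MIR319a and MIR319b genes yield the same mature sequence, and their reads cannot be separated.

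Each sequence matched the TAIR10.1 genome only at its annotated mature miRNA, inside the exon of the non-coding MIR gene and with no annotated gene on the opposite strand. miR159a lies in MIR159a (AT1G73687) at chr1:27713234-27713254 on the minus strand. In MIR159b (AT1G18075) on the plus strand, miR159b-5p lies at chr1:6220650-6220670 and miR159b-3p at chr1:6220813-6220833. miR159c lies in MIR159c (AT2G46255) at chr2:18994826-18994846 on the plus strand, and miR319c in MIR319c (AT2G40805) at chr2:17029870-17029890 on the plus strand. The 2 copies of miR319a/b lie in MIR319a (AT4G23713) at chr4:12353109-12353129 on the plus strand and in MIR319b (AT5G41663) at chr5:16660469-16660489 on the minus strand. The annotated RefSeq hairpin transcripts of MIR159b (196 bases, chr1:6220646-6220841, plus strand) and MIR319a (176 bases, chr4:12352956-12353131, plus strand) are printed with the listed mature sequences in capitals, to show where the strands lie in the precursor.
MIR159b: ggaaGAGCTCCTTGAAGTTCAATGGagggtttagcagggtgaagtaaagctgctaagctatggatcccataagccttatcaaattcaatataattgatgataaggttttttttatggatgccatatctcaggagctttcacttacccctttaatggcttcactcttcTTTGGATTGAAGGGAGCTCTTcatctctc
MIR319a: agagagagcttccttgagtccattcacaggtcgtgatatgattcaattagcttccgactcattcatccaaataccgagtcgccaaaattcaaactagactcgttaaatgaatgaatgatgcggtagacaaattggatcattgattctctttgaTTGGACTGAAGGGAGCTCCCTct
In the MIR159b hairpin the 5p strand spans bases 5 to 25 and the 3p strand bases 168 to 188, and in MIR319a the mature sequence spans bases 154 to 174.

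Sites for these miRNAs were looked up in the coding sequences of 8 known targets, to show what the guide strands pair with. A site is the stretch of 21 bases with the fewest mismatches to miR159a (MYB genes) or miR319a/b (TCP genes), counting a G-U pair as 0.5 of a mismatch, and capitals mark bases in Watson-Crick pairs.
MYB33 (chr5:1839579-1839599, plus strand): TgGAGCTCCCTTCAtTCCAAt
MYB101 (chr2:13783168-13783188, minus strand): TAGAGCTtCCTTCAAaCCAAA
TCP4 (chr3:5063300-5063320, plus strand): gaGGgGtcCCCTTCAGTCCAg
TCP10 (chr2:13221210-13221230, minus strand): AaGGgGtaCCCTTCAGTCCAg
The MYB33 site made 18 Watson-Crick pairs with miR159a and 17 with miR159b-3p, and MYB65 held the same letters at its site. The MYB101 site made 19 with miR159a and 18 with miR159b-3p. The TCP sites made 15 or 16 with miR319a/b and 16 or 17 with miR319c. Each count is that of the best-pairing stretch at the printed site or shifted from it by a few bases at most. Pair counts did not separate the families at every site. At or next to their sites, MYB33 and MYB65 made 18 pairs with either miR319 sequence as well. Counted likewise, TCP4 made 15 with miR159c, 14 with miR159b-3p and 13 with miR159a. These are sequence matches only, and no target transcript was measured in this series.

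The miRNA reads were a small part of each library. The libraries held 16041013 to 19601046 genome-matched small RNA reads, of which 6670 to 34567 were identical to a mature miRNA. The authors normalized counts to RPTM, reads per 10000000 genome-matched reads, and 3 reads, taken as the floor of detection, correspond to 1.53 to 1.87 RPTM. The replicates of snrk2.2/3/6 differed widely, since the total miRNA level of replicate 1 was 2.65 times that of replicate 2. The corresponding ratio was 1.13 in WT and 1.01 in hyl1-2. The total was 18.3% of WT in hyl1-2 and 59.4% in snrk2.2/3/6. Fold changes given here are relative to genome-matched reads, and scaling to the miRNA reads themselves shifts all of them. With TMM factors, computed from the miRNA counts, the median log2 fold change of the tested sequences moved from -2.62 to 0.12 in hyl1-2 and from -0.72 to 0.07 in snrk2.2/3/6.

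In WT, miR159 was the more abundant family by far. The family summed to 5806.0 and 5204.6 RPTM in the 2 WT libraries, where it made up 27.5% (95% Wilson interval 27.0 to 27.9%) and 27.9% (27.4 to 28.4%) of all miRNA reads. miR319 summed to 184.7 and 46.01 RPTM, or 0.874% (0.781 to 0.977%) and 0.246% (0.197 to 0.309%) of miRNA reads. These intervals cover counting error only and leave out the spread between libraries. Even for counting error they may be too narrow, because amplified reads carrying no molecular identifier need not stem from separate molecules. The order of mean WT levels was miR159b-3p (3219.2 ± 137.1 RPTM), miR159a (2268.6 ± 286.9), miR319a/b (101 ± 100.3), miR319c (14.4 ± 2.198), miR159c (13.47 ± 5.168) and miR159b-5p (3.986 ± 3.907; SD, n = 2). The ranges of miR159b-3p and miR159a did not overlap, and neither did those of miR159a and miR319a/b or of miR319a/b and miR319c, whereas miR319c and miR159c overlapped. The strand partner miR159b-5p had 2 and 11 reads in WT, or 0.0369% and 0.216% of the miR159b-3p reads. In bulk leaf RNA, fewer cells that make a miRNA and less of it per cell cannot be told apart.

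**Figure D1:**
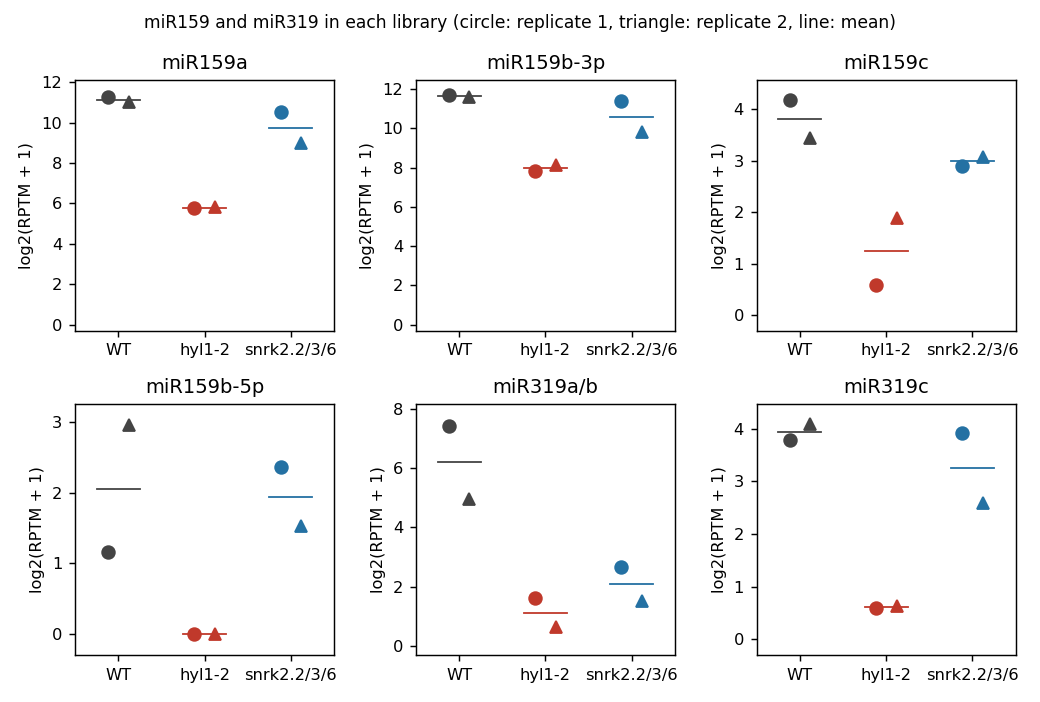
Level of each sequence as log2(RPTM + 1) (vertical axis) in every library of the 3 genotypes (horizontal axis), with replicate 1 as a circle, replicate 2 as a triangle and the mean of the log2 values as a line. All 6 sequences are lower in either hyl1-2 library than in either WT library, whereas in snrk2.2/3/6 this holds for miR159a, miR159b-3p, miR159c and miR319a/b but not for miR319c or miR159b-5p.

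Every member that could be tested fell in hyl1-2. Of the 6 sequences, 5 had a mean of at least 10 reads and were tested by edgeR's quasi-likelihood test, fitted to all 59 sequences that passed this limit, and in hyl1-2 all 5 lay under WT with an adjusted p below 0.05. The background for this count is high, since 67.8% of the 59 tested sequences were lower in hyl1-2. The median log2 fold change of the 5 was -4.59, against -2.62 over all tested sequences. By the 2-fold limit of the study (at least 10 RPTM in WT and at most 50% of WT in the mutant), 5 of the 5 members that reached this WT level were reduced in hyl1-2, against 89.8% of all such sequences. The ranges of hyl1-2 and WT were separate, with hyl1-2 lower, for those 5 and for 93.2% of all such sequences.

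The WT libraries gave 4041 and 3367 reads of miR159a, while hyl1-2 gave 104 and 101. The hyl1-2 replicates agreed closely at 53.06 and 54.87 RPTM, far below the WT range of 2065.8 to 2471.5 RPTM. The log2 fold change was -5.39 (standard error 0.87, adjusted p = 2.4e-07, edgeR), to 2.38% of WT, and it ranked 8 of 59 from the lowest. For miR159b-3p, the 5422 and 5089 reads of WT compared with 451 and 508 of hyl1-2. Its levels of 230.1 and 276 RPTM in hyl1-2 were likewise far below WT but stood well above those of miR159a in the same libraries. On the log2 scale it changed by -3.67 (standard error 0.74, adjusted p = 2.59e-05, edgeR), to 7.86% of WT, which ranked 19 of 59. As a whole, miR159 was at 5.61% of WT in hyl1-2, and its share of miRNA reads was 7.79% and 9.21%. Under TMM factors, which remove a change shared by most miRNAs, miR159a remained lower by a log2 change of -2.64 (adjusted p = 2.15e-05, edgeR), as did miR159b-3p with -0.94 (adjusted p = 0.048, edgeR).

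miR159c is the rarest guide strand of its family. WT libraries gave 28 and 16 reads of it, and hyl1-2 libraries 1 and 5, without overlap between the genotypes. On the log2 scale it changed by -3.02 (standard error 1.16, adjusted p = 0.0171, edgeR). From pooled reads it was at 11.7% of WT, with a 95% counting interval of 4.08 to 27.6% (exact conditional). This call did not hold without WT replicate 1 (log2 fold change -2.57, adjusted p = 0.243, edgeR), WT replicate 2 (-3.37, 0.098) or hyl1-2 replicate 1 (-2.28, 0.168), or with the replicate block (-3.07, 0.0507), although the change stayed of similar size. It was also lost with TMM factors (-0.41, adjusted p = 0.705, edgeR), total miRNA counts as library sizes (-0.61, 0.593) and DESeq2's own size factors (-0.49, 0.747), where the change itself was small. miR159b-5p was too rare to be tested. It had 0 reads in both hyl1-2 libraries, against 2 and 11 in WT, and no fold is given because WT replicate 1 was itself under the floor of 3 reads.

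Both miR319 sequences were near or under the floor of 3 reads in hyl1-2, miR319c in both libraries under it. WT gave 281 and 49 reads of miR319a/b, hyl1-2 gave 4 and 1. The WT libraries differed 5.72-fold from each other in RPTM, yet both were far above hyl1-2. The log2 fold change of miR319a/b was -6.20 (standard error 1.18, adjusted p = 1.03e-05, edgeR), and by pooled reads it was at 1.3% of WT (95% counting interval 0.42 to 3.07%). Without WT replicate 1 the log2 fold change was -4.45 (adjusted p = 0.0266, edgeR). For miR319c, the 21 and 26 reads of WT compared with a single read in each hyl1-2 library. Its change on the log2 scale was -4.59 (standard error 1.30, adjusted p = 0.00167, edgeR), and by pooled reads it was at 3.66% of WT with a counting interval of 0.43 to 14%. The miR319c call did not hold without WT replicate 2, where the log2 fold change stayed at -4.43 (adjusted p = 0.0668, edgeR). It was also lost with TMM factors (-2.04, adjusted p = 0.0707, edgeR) and with DESeq2's own size factors (-2.21, adjusted p = 0.192).

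**Figure D2:**
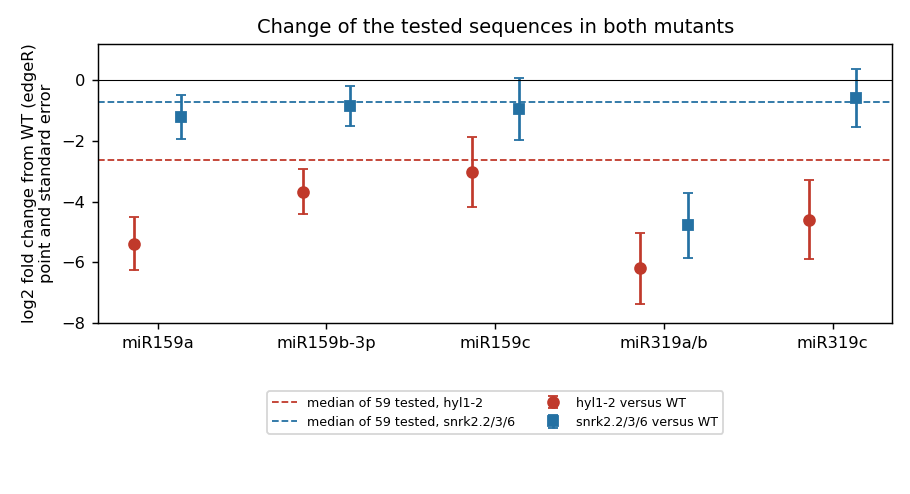
Log2 fold change from WT by edgeR (vertical axis) of the 5 tested sequences (horizontal axis) in hyl1-2 (circles) and snrk2.2/3/6 (squares), with bars for the standard error and dashed lines at the median of the 59 tested sequences (-2.62 and -0.72). All 5 points lie below the hyl1-2 median in hyl1-2, and in snrk2.2/3/6 miR319a/b stands apart at -4.78 while the others lie between -1.21 and -0.58. The comparisons share the WT libraries.

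In snrk2.2/3/6 only miR319a/b passed the test, and 1 of 5 tested members was lower where 3.39% of all 59 tested sequences were. No further member had an unadjusted p under 0.05. By the 2-fold limit, 2 of the 5 members that reached the WT level were reduced, miR159a and miR319a/b, against 45.8% of all such sequences. For 4 of the 5, all but miR319c, the snrk2.2/3/6 range lay wholly under the WT range, against 55.9% of all such sequences. The median log2 fold change of the tested members was -0.94, close to the -0.72 of all tested sequences.

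The 9 and 3 reads of miR319a/b in snrk2.2/3/6 corresponded to 5.328 and 1.87 RPTM, compared with WT levels of 171.9 and 30.06 RPTM. Both mutant libraries were below the lower of the WT libraries. Its log2 fold change was -4.78 (standard error 1.08, adjusted p = 0.000961, edgeR), ranking 2 of 59 from the lowest, and by pooled reads it was at 3.6% of WT (95% counting interval 1.84 to 6.38%). That interval is narrower than the distance between the WT replicates. The call held with TMM factors (log2 fold change -3.89, adjusted p = 0.00254, edgeR) and with total miRNA counts as library sizes (-3.98, adjusted p = 0.00364, edgeR). It was lost without WT replicate 1 (log2 fold change -3.03, adjusted p = 0.952, edgeR) and without snrk2.2/3/6 replicate 2 (-4.23, adjusted p = 0.181, edgeR).

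miR319c, which differs from miR319a/b by a single base, gave another picture in the same libraries. The snrk2.2/3/6 libraries gave 24 and 8 reads of it, while WT gave 21 and 26. In RPTM, replicate 1 of the mutant lay within the WT range and replicate 2 below it. The fitted log2 fold change was -0.58 (standard error 0.97, adjusted p = 0.795, edgeR), and by pooled reads it was at 67.5% of WT (95% counting interval 41.7 to 108%). Scaled by TMM factors or to the total miRNA count it became slightly positive (log2 fold changes 0.21 and 0.14). A change of miR319c was thus not detectable at this depth and with this spread between replicates, and whether its change differs from that of miR319a/b was tested only through the ratio of their reads.

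The oligonucleotides that the study lists for miR319 are shown because they differ in which of these sequences they match exactly.
qRT-PCR oligonucleotide: uuggacugaagggagcuccc
RNA blot probe: aaggagctcccttcagtccaa
The first, of 20 bases, is identical to the start of miR319a/b and not to miR319c. The second, of 21 bases, is the exact complement of miR319c and not of miR319a/b. Only exact matches were sought, and binding to near-identical sequences was not examined.

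Within each library the ratio of the 2 miR319 sequences does not depend on any scaling between libraries. There were 0.0747 and 0.531 miR319c reads per miR319a/b read in WT. The values were 0.25 and 1 for hyl1-2, while both snrk2.2/3/6 libraries stood at 2.67. miR319c was thus the rarer sequence in both WT libraries and had more reads in both snrk2.2/3/6 libraries, whereas hyl1-2 overlapped WT and rested on 5 and 2 reads of both sequences together. The snrk2.2/3/6 ratios too rested on few reads, 24 of miR319c against 9 of miR319a/b in replicate 1 and 8 against 3 in replicate 2. The 3 reads are at the floor of detection. The mean log2 ratio differed by 3.74 between snrk2.2/3/6 and WT (exact permutation test, two-sided p = 0.333) and by 1.33 between hyl1-2 and WT (p = 0.667). With 2 libraries against 2, 0.333 is the smallest two-sided p this test can give.

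The miR159 sequences did not pass the test in snrk2.2/3/6. The 2457 and 803 reads of miR159a there corresponded to 1454.5 and 500.6 RPTM, both below the WT range. Its log2 fold change was -1.21 (standard error 0.73, adjusted p = 0.377, edgeR), at 64.1% of the WT mean in replicate 1 and 22.1% in replicate 2. The 4526 and 1446 reads of miR159b-3p corresponded to 2679.2 and 901.4 RPTM, likewise below the WT levels of 3316.2 and 3122.3. Its log2 fold change was -0.85 (standard error 0.67, adjusted p = 0.465, edgeR), at 83.2% and 28% of the WT mean. With TMM factors the log2 fold change was -0.41 for miR159a (adjusted p = 0.477, edgeR) and -0.06 for miR159b-3p (adjusted p = 0.896, edgeR). The replicates of snrk2.2/3/6 were 2.91-fold apart for miR159a, 2.97-fold for miR159b-3p and 2.85-fold for both miR319 sequences, close to the 2.65-fold distance of their total miRNA levels. The part of this library difference in the members' levels was not tested. Without replicate 1 of snrk2.2/3/6, miR159a (log2 fold change -2.18, adjusted p = 0.00909, edgeR) and miR159b-3p (-1.84, adjusted p = 0.0115, edgeR) passed, so that 3 of 5 members were lower, but so were 20 of all 59 tested sequences, whose median log2 fold change was then -1.75. Without replicate 2 none of the members passed by edgeR, with 1 at an unadjusted p under 0.05. miR159c did not follow the library difference, with 11 and 12 reads in snrk2.2/3/6 (6.512 and 7.481 RPTM), both below WT. Its log2 fold change was -0.94 (standard error 1.02, adjusted p = 0.639, edgeR), and it became 0.13 with TMM factors. miR159b-5p had 7 and 3 reads, within the WT range.

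As a share of miRNA reads, both families were below both WT libraries in snrk2.2/3/6. How many of all tested sequences had such lower shares was not counted. With total miRNA counts as library sizes, their median log2 fold change in snrk2.2/3/6 was -0.00. miR159 took 24.1% (95% Wilson interval 23.6 to 24.6%) and 21.8% (21 to 22.6%), compared with 27.5% and 27.9% in WT. The share of miR319 was 0.114% and 0.106%, compared with 0.874% and 0.246%. In hyl1-2 the share of miR319 was 0.07% and 0.03%, from 5 and 2 reads. The family levels in RPTM were 50.5% of WT for miR159 and 11.4% for miR319 in snrk2.2/3/6, and 5.61% and 1.58% in hyl1-2, each with an exact permutation p of 0.333, the smallest possible. On the log2 scale the snrk2.2/3/6 levels were -0.99 for miR159 and -3.13 for miR319, but -0.19 and -2.25 with TMM factors. Without snrk2.2/3/6 replicate 1 miR159 was at -1.96, and without replicate 2 at -0.41. For miR319 the value without WT replicate 1 was -1.80. In hyl1-2 the levels were -4.16 and -5.99, but -1.42 and -3.03 with TMM factors.

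The balance between the main miR159 sequences separated the genotypes, most widely hyl1-2 from the others. miR159a made up 42.7% (95% Wilson interval 41.7 to 43.7%) and 39.8% (38.8 to 40.9%) of the reads of both sequences in WT. The hyl1-2 values were 18.7% (15.7 to 22.2%) and 16.6% (13.8 to 19.7%), while those of snrk2.2/3/6 were 35.2% (34.1 to 36.3%) and 35.7% (33.8 to 37.7%). The 3 genotypes did not overlap, and the replicates of each lay far closer to each other than to hyl1-2. Put as a ratio, there were 1.34 and 1.51 miR159b-3p reads per miR159a read in WT. This became 4.34 and 5.03 for hyl1-2, but only 1.84 and 1.8 for snrk2.2/3/6. The mean log2 ratio was higher than in WT by 1.71 in hyl1-2 and by 0.35 in snrk2.2/3/6, each with an exact permutation p of 0.333, the smallest that 2 libraries against 2 can give. As a share of all miRNA reads, miR159a went from 11.7% and 11.1% in WT to 1.46% and 1.51% in hyl1-2, and miR159b-3p from 15.7% and 16.7% to 6.32% and 7.62%.

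**Figure D3:**
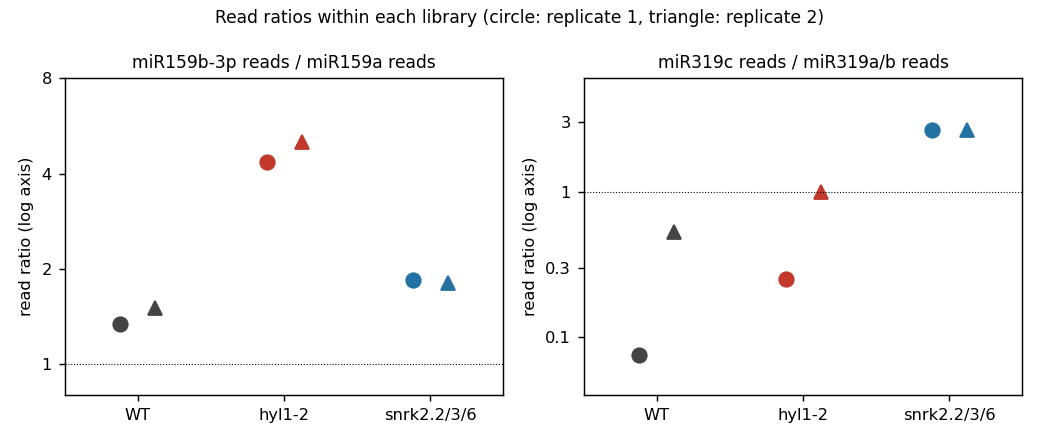
Reads of miR159b-3p per read of miR159a (left) and of miR319c per read of miR319a/b (right) in each library, on log axes, with replicate 1 as a circle, replicate 2 as a triangle and a dotted line at equal reads. The hyl1-2 libraries stand at 4.34 and 5.03 on the left, above all others, and the snrk2.2/3/6 libraries stand at 2.67 on the right, above all others.

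Set against each other, the mutants differed in 3 of the 5 tested members, all lower in hyl1-2, where 45.8% of the 59 tested sequences were lower. The log2 difference was -4.18 for miR159a (standard error 0.82, adjusted p = 5.71e-05, edgeR) and -2.82 for miR159b-3p (standard error 0.71, adjusted p = 0.00167, edgeR). It was -4.02 for miR319c (standard error 1.32, adjusted p = 0.0103, edgeR), with 1 read in each hyl1-2 library, and this call was lost without either WT or either hyl1-2 library (adjusted p = 0.0624 to 0.112, edgeR). miR319a/b, low in both mutants, differed by -1.42 (standard error 1.19, adjusted p = 0.324, edgeR), and with 4 and 1 against 9 and 3 reads a difference between the mutants was not detectable at this depth. With TMM factors only miR159a stayed past the threshold (log2 difference -2.23, adjusted p = 0.000215, edgeR), while miR159b-3p (-0.88, adjusted p = 0.0725) and miR319c (-2.25, adjusted p = 0.0602) did not. Without hyl1-2 replicate 1 the only call was that of miR159a, and without hyl1-2 replicate 2 there was none by edgeR, with 4 members at an unadjusted p under 0.05.

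**Figure D4:**
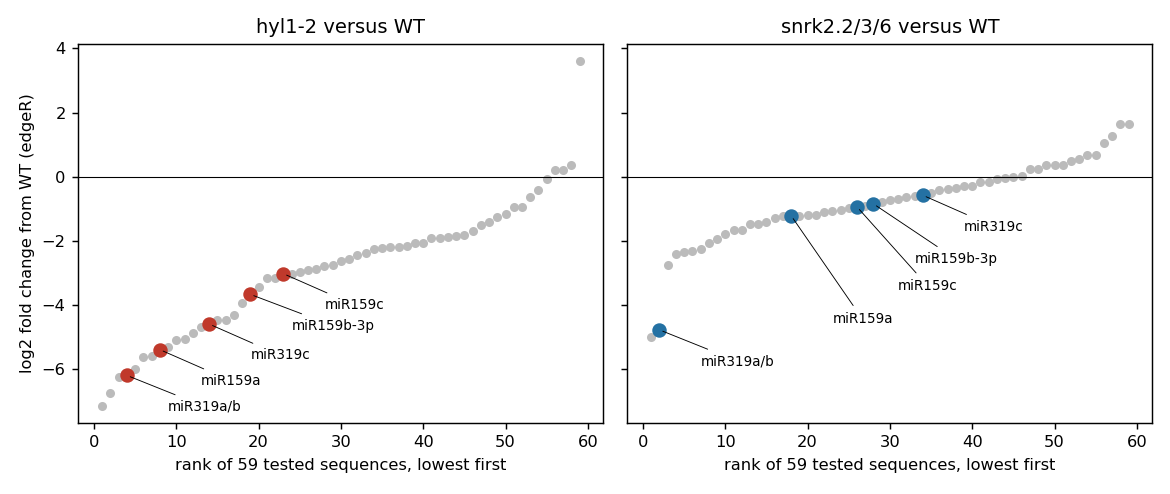
Log2 fold change from WT by edgeR (vertical axis) of the 59 tested sequences in order of rank (horizontal axis) in hyl1-2 (left) and snrk2.2/3/6 (right), with the members of miR159 and miR319 coloured and named and the other sequences in grey. In hyl1-2 the members hold ranks 4, 8, 14, 19 and 23 from the lowest, and in snrk2.2/3/6 miR319a/b holds rank 2 and the others ranks 18 to 34.

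Other miRNAs that act on transcription factors give the surroundings of these changes. In the Arabidopsis leaf, miR164 represses NAC factors and miR396 represses growth-regulating factors, and TCP factors promote the expression of both miRNAs. Of their 8 sequences 5 were tested. In hyl1-2, 2 were lower and 0 higher (median log2 fold change -1.82). The 2 were miR396a-5p (log2 fold change -4.45) and miR396a-3p (-5.61), from both strands of the same hairpin. In snrk2.2/3/6, by edgeR, 0 were lower (median -0.91), with 1 at an unadjusted p under 0.05. Over all 59 tested sequences the shares lower were 67.8% in hyl1-2 and 3.39% in snrk2.2/3/6. Among the sequences of miR156, miR157, miR160, miR165, miR166, miR167, miR169, miR170, miR171 and miR172, 15 of 46 were tested. Of these, 13 fell in hyl1-2 (median -2.74) and 1 fell in snrk2.2/3/6 (median -1.20). Both lists mix guide strands with their strand partners. The sequence that fell in snrk2.2/3/6 was miR165a-5p (log2 fold change -4.99, adjusted p = 0.0074, edgeR). From the other hairpin strand, miR165a-3p/b did not pass (-2.75, adjusted p = 0.1215, edgeR). miR828 and miR858, which target other MYB factors, had 3 sequences, none of which had enough reads to be tested. When the mutants were compared directly, hyl1-2 had the lower level at 2 of the 5 and 4 of the 15, and at 0 the higher, compared with 45.8% lower over all tested sequences.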

How the data were processed

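Small RNA libraries of 3 genotypes with 2 biological replicates each were analysed, and sample titles gave genotype and replicate. After adaptor trimming the authors mapped 18 to 30 nt reads against the TAIR10 genome, and they deposited, as whole-number counts, the reads identical to mature sequences in miRBase release 21. The aligner and its mismatch setting are not given in the sources used here. The deposited RPTM signal is the count per 10000000 genome-matched reads, and the totals were recovered from the ratio of both columns.

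Counts were tested with edgeR 4.0.16 (R 4.3.3, quasi-likelihood test) in a model of genotype over all 6 libraries, whose sizes were the genome-matched totals, with a mean of at least 10 reads and Benjamini-Hochberg adjustment over the 59 sequences tested. Standard errors are the log2 fold change over the square root of F. Only the edgeR step was tried on simulated counts, for hyl1-2 against WT and without a shift shared by a whole library. Family sums and read ratios were compared by two-sided exact permutation tests on the log2 scale. Counting intervals of pooled ratios are exact conditional binomial, those of shares are Wilson intervals. DESeq2 1.42.0, limma 3.58.1 (pseudocount of 1 RPTM) and other scalings, filters and subsets served as alternatives. Sequences were matched to the RefSeq assembly TAIR10.1. Permutation tests and intervals used scipy 1.17.1 in Python 3.11.15, tables numpy 2.4.6 and pandas 2.3.3, and figures matplotlib 3.10.9.

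The members and the other miRNA lists were chosen with earlier results of these data known. All 6 members are named, and outside them the 3 sequences most like the most abundant miR159 and miR319 sequence. From the other lists, sequences of miR165 and miR396 are named.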

Additional observations from a re-analysis of the deposited data

Results flagged for a closer look

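In 3 members the change from WT differed between the mutants, by edgeR's direct test at an adjusted p under 0.05, as it did, with hyl1-2 lower, in 45.8% of all tested sequences. The log2 level in hyl1-2 minus that in snrk2.2/3/6 was -4.18 for miR159a, -2.82 for miR159b-3p and -4.02 for miR319c. With TMM factors the adjusted p was 0.0725 for miR159b-3p and 0.0602 for miR319c, so that only the call of miR159a remained (edgeR).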

How the results depend on the processing

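Members lower in hyl1-2 than in WT numbered 5, and 3 with TMM factors or DESeq2's own size factors. Without a filter on low counts 0 members were lower by edgeR in any comparison, and 0 of all 174 sequences fitted there. The unadjusted p (edgeR) was under 0.05 for 6 members in hyl1-2, for 1 in snrk2.2/3/6 and for 4 in the direct comparison. Of all 174 sequences, 64, 12 and 40 were lower at this unadjusted limit, in the same order. Leaving out 1 library at a time gave 3 to 5 members lower in hyl1-2, 0 to 3 in snrk2.2/3/6 (reported value 1) and 0 to 3 in the direct comparison (reported value 3). In the direct comparison 1 was lower with TMM factors. By the 2-fold limit in RPTM, all members reaching the WT level were reduced in hyl1-2: 5, or 3 at 50 RPTM, and 4 to 5 without single libraries. With counts scaled to total miRNA reads, 4 were reduced in hyl1-2. The 2 reduced in snrk2.2/3/6 became 1 scaled to total miRNA reads, 1 within both same-numbered pairs (replicate block), and 2 to 4 without single libraries. The log2 level of miR159 in hyl1-2 was -4.16, but -1.70 scaled to total miRNA reads and -1.42 with TMM factors, and that of miR319 was -5.99, but -3.49 and -3.03. Without single libraries these were -4.28 to -4.04 and -6.73 to -4.66, and in snrk2.2/3/6 miR159 was -1.96 to -0.41 and miR319 -4.07 to -1.80. Scaled to total miRNA reads, the snrk2.2/3/6 levels were -0.27 and -2.35. The log2 ratio of miR319c to miR319a/b ranged from -3.74 to -0.91 over the single WT libraries, and in hyl1-2, where it was negative, it had no direction without replicate 1, which left equal reads of both sequences. With 1 read added to both sequences the log2 ratio of miR319c to miR319a/b in snrk2.2/3/6 was 1.25 instead of 1.42. Signs turned, without a call, under TMM factors, total miRNA counts and DESeq2's own size factors, in this order, for miR319c (0.21, 0.14, 0.22) and miR159c (0.13, 0.02, 0.29) in snrk2.2/3/6 and for miR319a/b in the direct comparison (0.48, 0.25, 0.31). These scalings move the median of all sequences towards 0, and the cause of the other changes was not tested. With the replicate number as a block, 4 members were lower in hyl1-2, 1 in snrk2.2/3/6 and 3 in the direct comparison, and among all sequences 38, 3 and 26. The deviations of same-numbered replicates correlated at r = 0.288 between WT and hyl1-2, -0.301 between WT and snrk2.2/3/6 and -0.175 between the mutants across 59 miRNAs, so the numbers are not known to pair the plants. A crossed replicate block, added after the data were seen, left 5, 1 and 3 members lower. Over all sequences, 40 were lower and 1 higher in hyl1-2, against 15 and 10 with TMM factors, 17 and 8 with total miRNA counts, and 10 and 10 with DESeq2's own size factors. In snrk2.2/3/6, 2 were lower and 0 higher, against 4 and 4, 4 and 4, and 4 and 5, and 4 and 0 with DESeq2 on genome-matched totals. In the direct comparison, 27 were lower and 0 higher, against 8 and 10, 13 and 10, and 8 and 10, and 12 and 0 in a fit of only these genotypes. Without single libraries all sequences lower ranged from 18 to 48 in hyl1-2, 0 to 20 in snrk2.2/3/6 and 2 to 38 in the direct comparison. A group left with 1 library was assumed to vary like the others. Depth limits miR319, miR159c and miR159b-5p, of which hyl1-2 had 0 to 5 reads per library.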

Other observations

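Across the 6 libraries, the sequences whose log2(RPTM + 1) followed miR159b-3p most closely among 54 other tested sequences were miR447a.2-3p (Pearson's r 0.986), miR391-5p (0.985) and miR396a-3p (0.982). The median over the 54 was 0.895. For miR319a/b they were miR394a/b-5p (0.964), miR390a-5p/b-5p (0.959) and miR165a-3p/b (0.955), with a median of 0.701. miR394a/b-5p had 151 and 51 reads in WT and miR165a-3p/b had 923 and 501, so that these too were higher in replicate 1 of WT, where miR319a/b had 281 and 49. miR390a-5p/b-5p, in contrast, had nearly equal reads in WT, 38 and 34. The points share libraries, genotypes and depth, and these values are a description only.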
